A study of Homo sapiens with 48 samples.

Results

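PTTG1 encodes securin, the inhibitor of separase, and its mRNA differed from control in opposite directions in a glioblastoma cell line. PTTG1 was lower with guides to the chromatin-complex subunits BRD8, RUVBL1, RUVBL2 and TRRAP and higher after p53 was induced. It is 1 row of the 19102 genes in the deposited table. PTTG1 was chosen by these same measured values, its log2 differences in each knockout and under p53, so its levels and differences are given as a description, with no test. CCNB2, CDC20 and CENPF are shown beside it as context, also without a test.

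Securin binds separase, the protease that cuts the cohesin rings holding sister chromatids together, and keeps it inactive until all chromosomes are attached to the spindle. The anaphase-promoting complex (APC/C), with its activator CDC20, then marks securin and cyclin B for destruction, and separase is released. PTTG1 mRNA is high in G2 and mitosis, as are the mRNAs of CCNB2 (cyclin B2), CDC20 and CENPF (a kinetochore protein), and it is abundant in many tumours, gliomas among them.

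All 48 libraries were strand-specific polyadenylated RNA from A382, an established human glioblastoma line. In 44 of them the cells had received a guide RNA by lentivirus and were collected on day 9. Of these, 8 carried the control guides sgNeg1 to sgNeg4 (2 libraries each), 4 each carried guides to BRD8 and H2AZ (2 guides, 2 libraries each), and 2 each, 1 per guide, carried guides to 14 further subunits (ACTL6A, DMAP1, EP400, GAS41, ING3, MEAF6, MORF4L1, MORF4L2, MRGBP, RUVBL1, RUVBL2, TIP60, TRRAP and VPS72), which belong to the EP400/TIP60 histone acetylation and H2A.Z exchange complex. The other 4 came from cells on day 2 of doxycycline, 2 with a control vector (A382_PCW) and 2 with an inducible p53 vector (A382_P53), so that both doxycycline groups had the drug and a vector. The labels do not say whether cells were pools or clones or whether replicates were separate cultures. Every error and p-value therefore measures library-to-library spread. Where a target has libraries of 2 guides, this spread includes differences between guides. Between libraries of the same guide or vector it may be no more than technical. The 4 BRD8 and 4 H2AZ libraries entered the fits as 4 replicates each, although they came from 2 guides.

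The values are FPKM, a gene's fragments corrected for transcript length and library size. They stand in 5 sections of the table, set apart by empty columns and treated here as normalized separately: BRD8 and its controls sgNeg1 (section 1), 10 subunits with sgNeg2 (section 2), the RUVBL and MORF4L guides with sgNeg3 (section 3), H2AZ with sgNeg4 (section 4), and the doxycycline libraries (section 5). Levels are therefore compared only within a section, and each knockout only with its section's sgNeg pair. The second libraries of MEAF6 and VPS72 held identical values in all 19102 genes and were left out of every comparison, so these targets rest on 1 library each and 46 columns were used. The sgNeg1 and BRD8 libraries had 8081 to 8158 genes at 1 FPKM or more, against 10503 to 11853 in the other 40. The targeted gene's own mRNA was at 18.6% to 82.3% of control in 14 knockouts, at 92.8% in MORF4L2 and at 103% in MORF4L1. A guide RNA cuts DNA and need not lower the mRNA. Of the 9 glioma markers, VIM, CD44 and EGFR were at 1 FPKM or more in all 46 libraries, SOX2 in 40 and NES in 4, while GFAP, OLIG2, S100B and CHI3L1 reached it in 0. Markers of leukocytes (PTPRC), endothelium (PECAM1), epithelium (EPCAM), neurons (RBFOX3) and oligodendrocytes (MBP) also reached 1 FPKM in 0 of 46 libraries. In the sgNeg1 and BRD8 section SOX2 reached 1 FPKM in fewer than 2 libraries, so it was not tested there. On the separate scales of sgNeg2, sgNeg3 and sgNeg4 its means were 35.1, 39.7 and 74.75 FPKM. What sets the sgNeg1 and BRD8 libraries apart in this marker was not tested.

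The 250 bases before the RefSeq start of PTTG1 (GRCh38.p14, chr5:160421605-160421854, plus strand) are shown with those of the 3 context genes, since PTTG1 and these genes moved together in some comparisons and apart in another. Capitals mark 2 motifs known from G2/M promoters, the NF-Y box CCAAT and the CHR element, which binds the DREAM and MuvB complexes, written TTTGAA in its usual form, with the variants TTCGAA and, also searched, TTTAAA and, less usual, CTTGAA, all searched on both strands. The CCNB2 window is chr15:59104896-59105145, that of CDC20 chr1:43358731-43358980 and that of CENPF chr1:214602945-214603194, all on the plus strand.
PTTG1: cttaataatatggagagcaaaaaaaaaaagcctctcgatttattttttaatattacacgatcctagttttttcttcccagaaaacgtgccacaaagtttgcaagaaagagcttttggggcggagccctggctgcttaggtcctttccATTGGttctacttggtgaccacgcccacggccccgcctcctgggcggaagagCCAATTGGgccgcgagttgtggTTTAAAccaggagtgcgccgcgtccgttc
CCNB2: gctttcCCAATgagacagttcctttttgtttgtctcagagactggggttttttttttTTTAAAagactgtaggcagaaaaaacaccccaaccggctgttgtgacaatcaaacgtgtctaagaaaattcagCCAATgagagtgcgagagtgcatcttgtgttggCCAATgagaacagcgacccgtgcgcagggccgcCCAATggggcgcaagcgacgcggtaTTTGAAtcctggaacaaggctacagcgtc
CDC20: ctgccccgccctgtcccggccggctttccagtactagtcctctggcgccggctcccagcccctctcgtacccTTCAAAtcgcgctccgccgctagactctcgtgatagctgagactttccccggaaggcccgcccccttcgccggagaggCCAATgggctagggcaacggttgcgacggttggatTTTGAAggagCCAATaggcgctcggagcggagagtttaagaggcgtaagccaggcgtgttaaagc
CENPF: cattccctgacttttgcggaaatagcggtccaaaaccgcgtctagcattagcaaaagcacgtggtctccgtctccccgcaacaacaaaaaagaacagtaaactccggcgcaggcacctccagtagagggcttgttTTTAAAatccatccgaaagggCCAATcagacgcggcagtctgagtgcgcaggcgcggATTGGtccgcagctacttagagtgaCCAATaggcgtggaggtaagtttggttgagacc
PTTG1 held 3 NF-Y boxes, with first bases 103, 51 and 48 bases before the start, the last pair overlapping on opposite strands, and 1 CHR match, TTTAAA, 29 bases before it. CCNB2 held 4 NF-Y boxes and 2 CHR matches, a TTTAAA 193 bases before its start and a TTTGAA that also began 29 bases before it. CDC20 held 2 NF-Y boxes and CENPF 3, with 2 and 1 CHR matches. Among 27305 windows of the same length, 33% held an NF-Y box and 29.6% a CHR match, so each motif alone is common. The p53 half-site, by its consensus on both strands, was matched in 5.5% of all windows and had 0 matches in those of PTTG1, CCNB2 and CDC20 and 1 in that of CENPF. These are letter matches in 1 window per gene and no measure of binding.

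Loss of BRD8, the bromodomain subunit, came with less PTTG1 in both guides. PTTG1 was at 71.1 and 80.8 FPKM in the sgNeg1 libraries, at 26.1 and 23.9 with BRD8 guide 1 and at 36.6 and 33.5 with guide 2. All 4 knockout libraries lay below both controls, and guide 1 was lower than guide 2. The group means were 76 ± 6.88 FPKM (SD, n = 2) and 30 ± 6 (SD, n = 4), or 39.5% of control. On the log2(FPKM + 1) scale, used for every difference here, PTTG1 was -1.33 ± 0.147 (limma SE), the 23rd largest fall of 8458 tested genes. Guide 1 alone gave -1.56 and guide 2 alone -1.09. In bulk RNA, fewer cells in G2 and mitosis and less PTTG1 RNA per cell cannot be told apart where PTTG1 was lower, here and in the other knockouts.

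**Figure D1:**
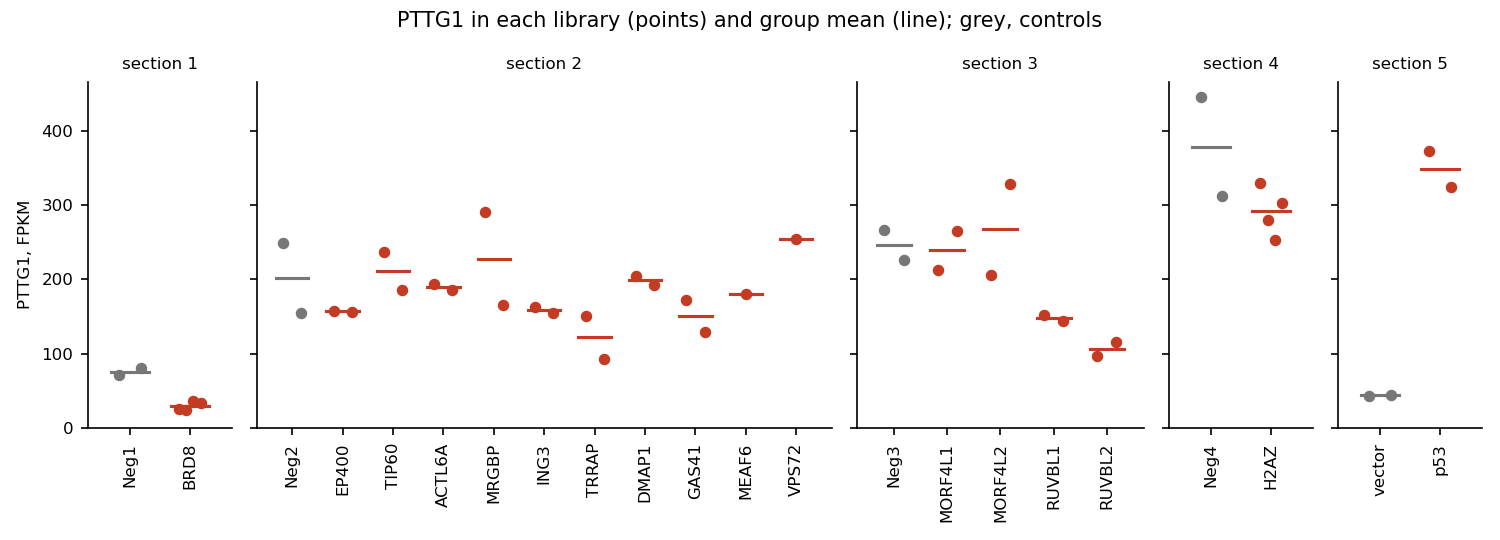
PTTG1 level (vertical axis, FPKM) in each of 46 libraries, by group (horizontal axis) and section, with grey for controls, red for knockouts or p53 and lines for group means. Sections were treated as normalized separately, so heights compare only within a panel: BRD8, RUVBL1, RUVBL2 and TRRAP lie below their controls, and both p53 libraries (324 and 373) lie above both vector libraries (43.3 and 44.9).

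RUVBL1 and RUVBL2 are paired AAA+ ATPases at the core of the complex, and they also serve other complexes. In their section both are compared with the same sgNeg3 libraries, which had PTTG1 at 266 and 226 FPKM. RUVBL1 knockouts had 152 and 144 FPKM, and RUVBL2 knockouts 97.4 and 116. Both pairs lay wholly below the controls, and the RUVBL2 pair lay wholly below the RUVBL1 pair. The means were 246 ± 28.4 FPKM in sgNeg3, 148 ± 5.55 in RUVBL1 and 106.9 ± 13.4 in RUVBL2 (SD, n = 2 each), which put RUVBL1 at 60.2% and RUVBL2 at 43.4% of control. The log2 differences were -0.73 ± 0.226 and -1.20 ± 0.226, the 823rd and 315th largest falls of 11063 genes.

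TRRAP, the large scaffold subunit, gave PTTG1 levels of 151 and 93.5 FPKM against 248 and 155 in sgNeg2. The higher TRRAP library lay only just under the lower control, although the groups did not overlap. The log2 difference was -0.71 ± 0.275, and it ranged from -1.06 to -0.37 when 1 library of either group was left out. The sgNeg2 pair itself was wide, with a mean of 201 ± 66.4 FPKM (SD, n = 2), and so was the TRRAP pair, at 122 ± 40.9 (SD, n = 2). The TRRAP mRNA itself was at 82.3% of control and overlapped it (-0.25, limma adjusted p = 0.44), so it does not show how much TRRAP was lost.

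Under the remaining guides PTTG1 overlapped its controls or rested on 1 library. EP400 (158 and 156 FPKM), ING3 (163 and 155), GAS41 (172 and 129), ACTL6A (194 and 185), DMAP1 (205 and 193), TIP60 (236 and 185) and MRGBP (290 and 165) each had at least 1 library between the sgNeg2 values of 155 and 248. The single MEAF6 library, at 181 FPKM, lay between the controls, and the single VPS72 library, at 254 FPKM, lay above both. The column deposited under both labels had 265 FPKM. In the sgNeg3 section MORF4L1 (213 and 265) and MORF4L2 (206 and 329) overlapped or straddled the controls.

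H2AZ is the histone variant that the complex places in chromatin. PTTG1 was at 445 and 312 FPKM in sgNeg4 and at 329, 280, 253 and 302 FPKM in the H2AZ knockouts. One knockout library lay between the controls, so the groups overlapped. The log2 difference was -0.36 ± 0.159, and it was -0.11 without the first sgNeg4 library and -0.62 without the second. The H2AZ mRNA itself (H2AFZ in the table) was at 18.6% of control.

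Ordered from low to high, the 17 PTTG1 differences ran from BRD8 through RUVBL2, RUVBL1, TRRAP, GAS41, H2AZ, EP400, ING3, MEAF6, ACTL6A, MORF4L1, DMAP1, MORF4L2, TIP60, MRGBP and VPS72 to p53. Of the 16 steps between neighbours in this order, 3 exceeded the larger of the neighbours' SEs: RUVBL2 to RUVBL1 (0.475), TRRAP to GAS41 (0.324) and VPS72 to p53 (2.57). From GAS41 (-0.39) to VPS72 (0.38), no step between neighbours exceeded it. In 4 comparisons all treated libraries lay below all controls, in 2 (VPS72, with 1 library, and p53) all lay above, and in 11 the groups overlapped. The 10 subunits of the second section share 1 sgNeg2 pair, so their differences move together when a control library is exchanged.

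Induced p53 came with PTTG1 in the opposite direction. PTTG1 was at 43.3 and 44.9 FPKM in the vector libraries and at 373 and 324 FPKM in the p53 libraries. Both p53 libraries lay far above both vector libraries, and the spread within each pair was small beside the step. The means were 44.1 ± 1.11 and 348 ± 34.8 FPKM (SD, n = 2 each), a ratio of 7.9. The log2 difference was 2.95 ± 0.0691, the 387th largest rise of 12203 genes. In level, PTTG1 stood 1667th and 1620th among all genes in the vector libraries and 130th and 143rd in the p53 libraries. The p53 targets MDM2, which degrades p53, and CDKN1A, the p21 inhibitor of cyclin-dependent kinases, rose by 2.36 (limma adjusted p = 7.5e-08) and 1.66 (limma adjusted p = 7.83e-08). The median difference of all tested genes here was -0.125, against -0.0946 to 0.0201 in the 7 knockouts described below, and setting it to 0 gave PTTG1 a difference of 3.07.

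The 3 context genes did not go with PTTG1 under p53. CCNB2 was at 14.3 and 13.9 FPKM with vector and 6.02 and 5.05 with p53. CDC20 went from 34.1 and 37.7 FPKM to 14.2 and 14.5, and CENPF from 8.65 and 9.05 to 2.07 and 1.77. In each gene both p53 libraries lay below both vector libraries, where PTTG1 lay above, and the log2 differences were -1.21, -1.26 and -1.76. In the knockouts with low PTTG1 the 3 genes were low as well. CCNB2 differed by -1.18 in BRD8, -1.16 in RUVBL1, -1.67 in RUVBL2 and -0.73 in TRRAP. CDC20 differed by -0.72, -0.90, -1.83 and -0.65, and CENPF by -0.66, -1.38, -1.72 and -0.51, in the same order. In BRD8 the PTTG1 difference was larger than the mean of the 3 by 0.474. In RUVBL1 and RUVBL2 it was smaller by 0.42 and 0.541. The log2(FPKM + 1) scale understates changes at low FPKM, as for CENPF in BRD8. In percent of control, BRD8 had PTTG1 at 39.5%, CCNB2 at 41.3%, CDC20 at 59.8% and CENPF at 49.4%. In TIP60, PTTG1 differed by 0.09 while CDC20 and CENPF differed by 0.54 and 0.71.

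**Figure D2:**
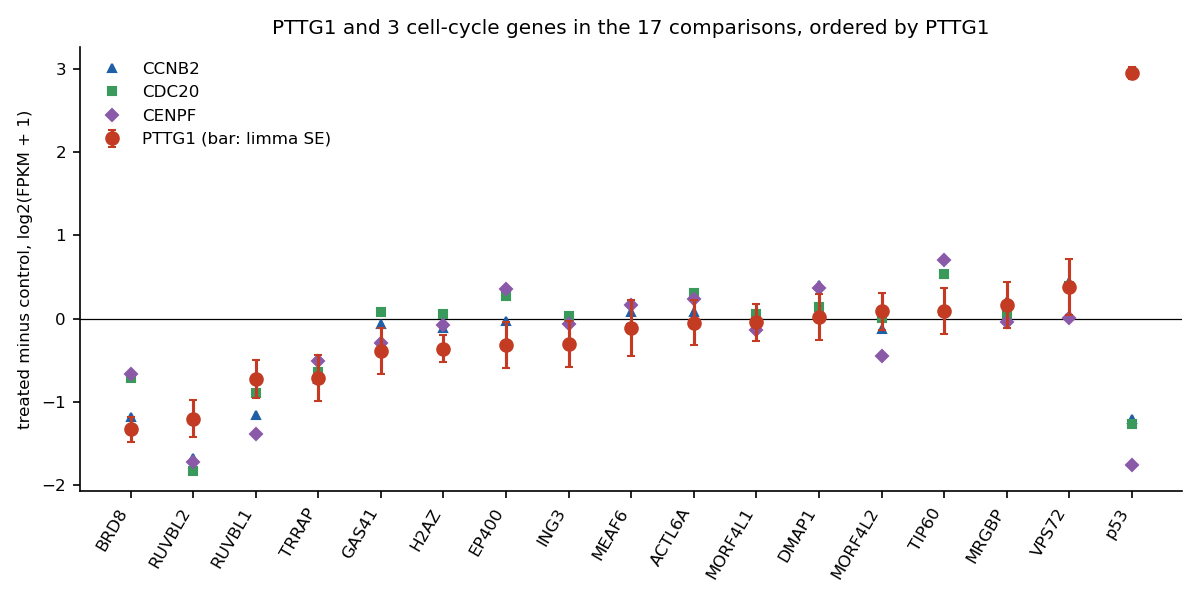
Treated minus control difference in log2(FPKM + 1) (vertical axis) for PTTG1 (red circles, bars are limma SE), CCNB2, CDC20 and CENPF in the 17 comparisons (horizontal axis), ordered by PTTG1. All 4 genes are below 0 in BRD8, RUVBL2, RUVBL1 and TRRAP, and under p53 PTTG1 is at 2.95 while the others lie between -1.76 and -1.21.

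The ratio of PTTG1 to CCNB2 within a library does not depend on the scale of its section. It lay between 3.1 and 7.6 in the 42 guide libraries, with a median of 4.57, and was 3.03 and 3.22 in the vector libraries. In the p53 libraries it was 61.9 and 64.1. The BRD8 libraries, at 4.22 to 4.9, spanned their controls at 4.57 and 4.63, so PTTG1 and CCNB2 were lower there in nearly equal proportion. RUVBL1 (6.9 and 7.58) and RUVBL2 (7.47 and 7.6) lay above their controls (5.7 and 4.78). The ratio of PTTG1 to CDC20 was 1.87 to 6.75 over the guide libraries, 1.27 and 1.19 with vector and 26.3 and 22.3 with p53.

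**Figure D3:**
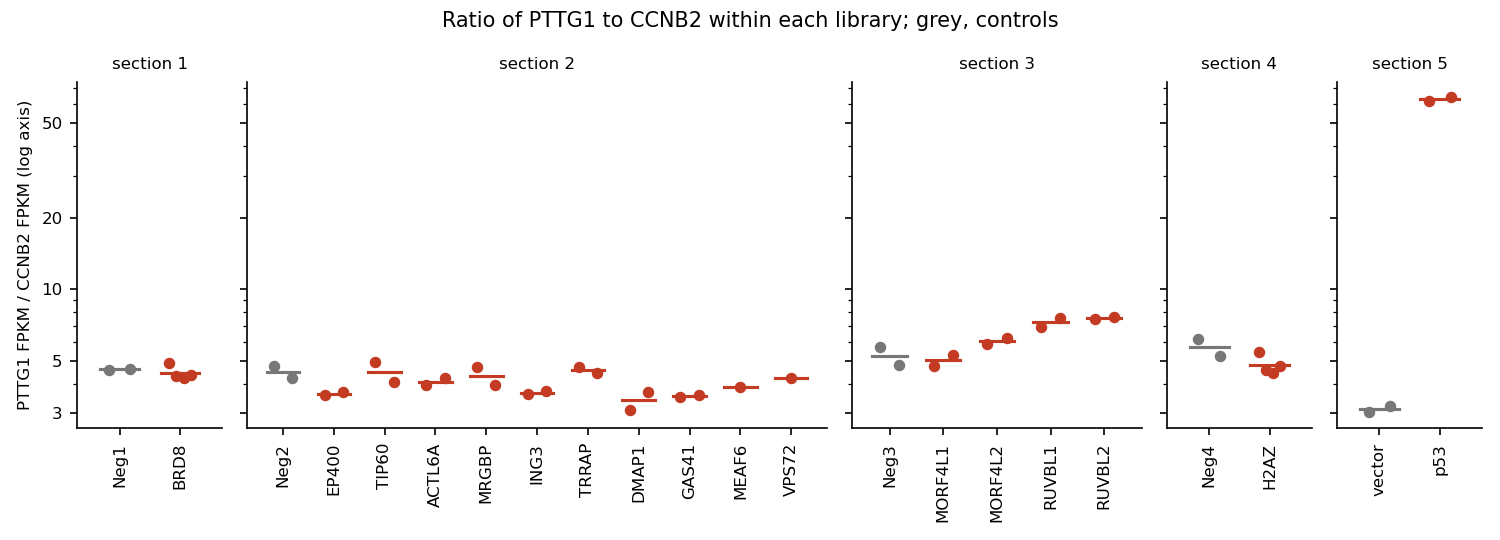
PTTG1 FPKM divided by CCNB2 FPKM in the same library (vertical log axis) for 46 libraries by group (horizontal axis) and section, with grey for controls and lines for group means. The p53 libraries, at 61.9 and 64.1, stand apart from the 44 others, which lie between 3.03 and 7.6.

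PTTG2 is a copy of PTTG1 without introns. Its annotated transcript of 691 bases has 1 exon, where the PTTG1 transcript compared with it has 753 bases and 6 exons, and 662 aligned positions were 94% identical. Fragments of one could therefore be counted to the other. PTTG2 was listed at 0 in all 6 sgNeg1 and BRD8 libraries, where PTTG1 was at 23.9 to 80.8 FPKM. In the other 40 libraries PTTG1 was 6.84 to 13.1 times as high as PTTG2, and the pair moved together. Under p53, PTTG2 went from 3.8 and 4.9 FPKM to 28.4 and 26 (log2 difference 2.4), and the ratio went from 11.4 and 9.16 to 13.1 and 12.5. In RUVBL1, RUVBL2 and TRRAP the PTTG2 differences were -0.654, -1.02 and -0.572.

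**Figure D4:**
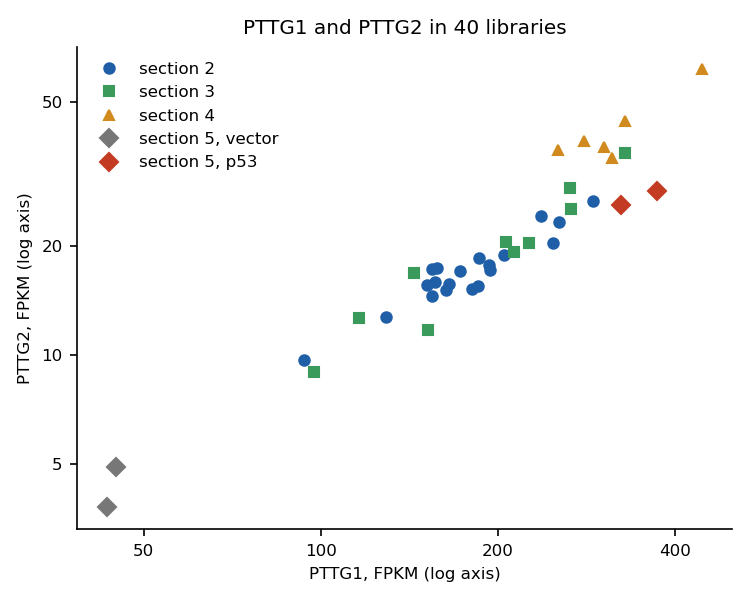
PTTG2 (vertical log axis, FPKM) against PTTG1 (horizontal log axis, FPKM) in the 40 libraries where PTTG2 was above 0, with symbols for section and, in the doxycycline section, for vector and p53. The points rise together along 1 band, and the 2 p53 points lie at 324 and 373 FPKM of PTTG1, the 2 vector points at 43.3 and 44.9.

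The genes next to PTTG1 on the chromosome differed by less than PTTG1 under p53 and in BRD8, and those expressed were not lower in RUVBL1 or RUVBL2. SLU7, a splicing factor gene on one side, was at 16.6 and 16.2 FPKM with vector and 18.2 and 17.2 with p53, and its differences were -0.0898 in BRD8, 0.582 in RUVBL1 and 0.738 in RUVBL2. C1QTNF2, the next gene beyond it, differed by 0.659 under p53 and by -0.223, 0.446 and 0.274 in BRD8, RUVBL1 and RUVBL2. On the other side, ATP10B and GABRB2 were at most at 0.0388 FPKM in the 4 doxycycline libraries.

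ESPL1, the gene of separase, which securin holds inactive, went down with PTTG1 in BRD8, RUVBL1, RUVBL2 and TRRAP and up with it under p53. It was lower in BRD8 (-0.86 ± 0.0981, limma adjusted p = 0.000121), RUVBL1 (-0.83 ± 0.162, adjusted p = 0.00707), RUVBL2 (-1.14 ± 0.162, adjusted p = 0.00114) and TRRAP (-0.69 ± 0.135, adjusted p = 0.0055). It was also lower in TIP60 (-0.74 ± 0.135, limma adjusted p = 0.000501), where PTTG1 overlapped its controls. Under p53 it went from 2.04 and 2.18 FPKM to 3.85 and 3.27 (0.55, limma adjusted p = 0.000934), far less than PTTG1, and the ratio of PTTG1 to ESPL1 went from 21.2 and 20.6 to 97 and 99.1. In EP400 and H2AZ the ESPL1 differences were -0.23 (limma adjusted p = 0.374) and -0.03 (limma adjusted p = 0.902). In ING3, GAS41 and MRGBP, where PTTG1 also overlapped its controls, they were -0.51 (limma adjusted p = 0.198), -0.43 (adjusted p = 0.124) and -0.38 (adjusted p = 0.249). All ESPL1 values of these knockouts lay below both controls. Among the knockouts, ESPL1 differences above 0 were those of VPS72 (0.16), MORF4L1 (0.09) and MEAF6 (0.02).

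The other genes of the pathway were taken as 72 genes in 7 lists: separase and cohesin, the APC/C core, its partners, the spindle checkpoint, other APC/C substrates, control of CDK1, and transcription of G2/M genes. Members were counted as called at a limma adjusted p under 0.05 over all tested genes, in the 8 comparisons with at least 1% of genes called. PTTG1 and the 3 context genes are not counted. In BRD8, 5 of 67 tested members were higher and 33 lower, where 24.2% and 21.7% of all tested genes were called higher and lower. In RUVBL1, 3 of 72 were higher and 28 lower (all genes 12.3% and 15.5%), and in RUVBL2 1 was higher and 30 lower (13.5% and 19.9%). In TRRAP, 1 was higher and 7 lower (6.54% and 7.71%), and in TIP60 12 were higher and 9 lower (15.4% and 26.6%). With libraries set to a common median the TIP60 split was 21 higher and 6 lower, and with the length trend removed it was 23 and 5. The length correction gave 7 higher and 30 lower in RUVBL2. The shares of all genes called under these settings are not given, so these splits are no result about the pathway genes. EP400 had 0 called of 72 by limma (all genes 1.56% higher and 2.27% lower). At an unadjusted limma p under 0.05, EP400 had 7 of 72 members, where 2237 of all 11382 tested genes reached it. H2AZ had 1 lower, MYBL2, the B-MYB factor of G2/M genes (-0.46, limma adjusted p = 0.0324), where all genes stood at 2.6% higher and 3.42% lower. Leaving out 1 library moved the total of 8 called in TRRAP to between 0 and 20, that of 21 in TIP60 to 9 without the second sgNeg2 library, and that of 31 in RUVBL1 to 12 without its second library and 14 without either sgNeg3 library. Under p53, 12 of 71 were higher and 53 lower (37.6% and 46.7%). The median difference of the members was -0.178 in BRD8, -0.355 in RUVBL1, -0.389 in RUVBL2, -0.148 in TRRAP, -0.0153 in H2AZ and -0.549 under p53, against 0.0201, -0.0243, -0.0522, -0.0187, -0.00938 and -0.125 for all tested genes. In TIP60 and EP400 it was above 0, at 0.104 and 0.0706, against -0.0946 and -0.0322.

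**Figure D5:**
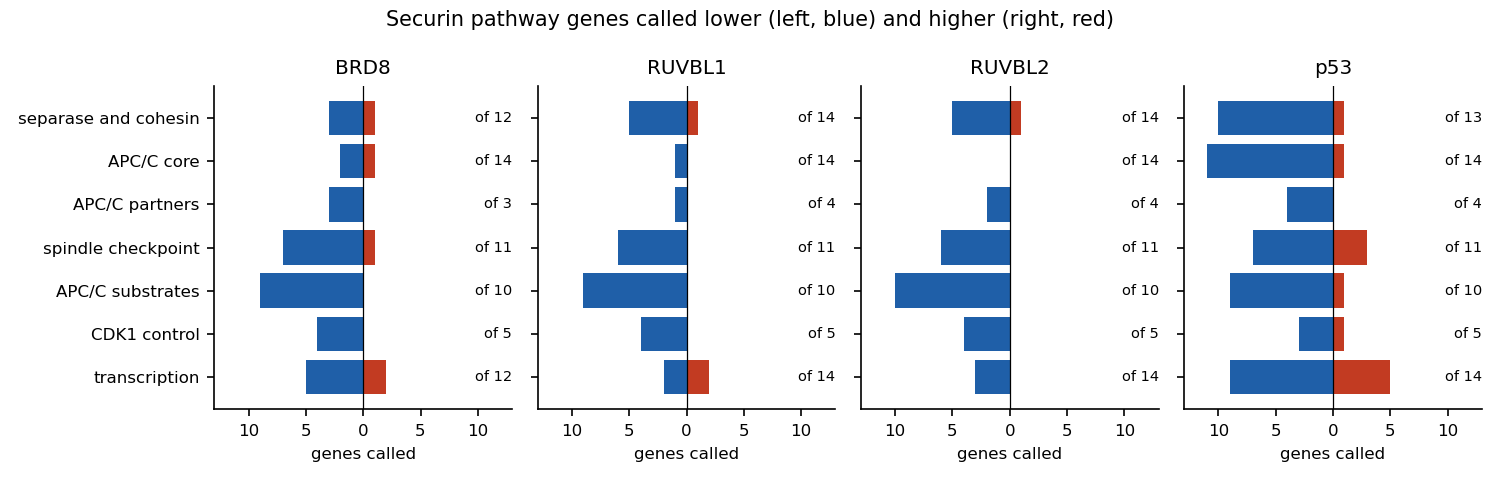
Number of genes of each securin pathway list called lower (blue, to the left) or higher (red, to the right) in BRD8, RUVBL1, RUVBL2 and p53 (horizontal axis, genes with limma adjusted p under 0.05), with the number tested at the right. Under p53, 53 of 71 genes are to the left and 12 to the right, where 46.7% and 37.6% of all tested genes were called lower and higher.

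The other APC/C substrates, mitotic and cell-cycle proteins that the same ligase marks at various stages, were lower in 9 of 10 in BRD8, 9 of 10 in RUVBL1 and 10 of 10 in RUVBL2 (all genes 21.7%, 15.5% and 19.9%). In TIP60 2 were higher and 0 lower (15.4% and 26.6%), and in TRRAP 2 were lower (7.71%). PLK1, a mitotic kinase, fell from 8.2 to 3.73 FPKM in BRD8 (-0.98, limma adjusted p = 0.000332), and CCNB1, cyclin B1, fell from 65.5 to 18.1 FPKM in RUVBL2 (-1.80, limma adjusted p = 0.000165). Under p53, 9 of 10 were lower (46.7%), with ANLN, a cytokinesis scaffold, at -1.61 (limma adjusted p = 8.63e-07), AURKA, a spindle kinase, at -1.002 (adjusted p = 4.14e-06) and NEK2, a centrosome kinase, at -1.10 (adjusted p = 1.63e-05). The exception was GMNN, geminin, which blocks relicensing of DNA replication and rose from 8.36 to 16.7 FPKM (0.92, limma adjusted p = 9.51e-06). PTTG1 thus differed in direction from 9 of these 10 genes under p53, and from 0 of the called ones in BRD8, RUVBL1 and RUVBL2.

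The APC/C core had 11 of 14 subunits lower under p53 and 1 higher (all genes 46.7% lower and 37.6% higher), with CDC27 at -1.17 (limma adjusted p = 2.42e-06) and ANAPC1 at -1.33 (adjusted p = 6.45e-06). In BRD8 2 of 14 were lower and 1 higher (all genes 21.7% and 24.2%), in RUVBL1 1 was lower (15.5%), and in TRRAP 1 was higher (6.54%). In TIP60 3 were higher and 1 lower (15.4% and 26.6%). In RUVBL2 limma called 0 of 14 (all genes 13.5% higher and 19.9% lower). At an unadjusted limma p under 0.05 there were 2 of 14, where 4895 of all 11063 tested genes reached it. All 4 partners were lower under p53 (46.7%), among them FBXO5, the inhibitor EMI1 (-0.97, limma adjusted p = 1.65e-05). In BRD8 all 3 tested partners were lower (21.7% of all genes), UBE2C, the ubiquitin-conjugating enzyme that works with the complex, by -0.85 (limma adjusted p = 0.00217).

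The spindle checkpoint keeps APC/C from securin. Of the genes listed for it, 7 of 11 were lower in BRD8, 6 in RUVBL1 and 6 in RUVBL2 (all genes 21.7%, 15.5% and 19.9%). In TIP60 2 were higher and 0 lower (15.4% and 26.6%). BUB1B, a checkpoint kinase homologue, was at -0.59 (limma adjusted p = 0.00108) in BRD8, -1.28 (adjusted p = 0.000888) in RUVBL1 and -1.60 (adjusted p = 0.000173) in RUVBL2. Under p53, where 46.7% of all genes were lower and 37.6% higher, 7 were lower, among them MAD2L1 at -1.33 (limma adjusted p = 1.88e-06), and 3 were higher: MAD1L1, the partner of MAD2 at kinetochores, rose from 8.5 to 51.9 FPKM (2.47, adjusted p = 1.69e-07), BUB3 by 0.78 (adjusted p = 3.55e-06), and TRIP13 by 0.56. Of the cohesin genes, RAD21, the subunit that separase cuts, fell by 1.30 on the log2 scale under p53 (limma adjusted p = 4.24e-07), from 59.5 to 23.6 FPKM, and by 0.71 in RUVBL1 (adjusted p = 0.0143). In all, 10 of 13 separase and cohesin genes were lower under p53, where 46.7% of all genes were, and ESPL1 was the 1 member called higher (all genes 37.6%).

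CDK1, the mitotic kinase, fell by 1.27 under p53 (limma adjusted p = 3.08e-06) and by 1.14 in RUVBL2 (adjusted p = 0.00132). WEE1, the kinase that restrains CDK1, rose from 6.26 to 25.2 FPKM under p53 (1.85, limma adjusted p = 2.7e-07), and in BRD8, RUVBL1, RUVBL2 and TRRAP it fell by 0.60 (adjusted p = 0.00149), 0.63 (adjusted p = 0.00944), 0.73 (adjusted p = 0.0035) and 0.94 (adjusted p = 0.00559). It also fell in TIP60, by 0.52 (limma adjusted p = 0.0347), where PTTG1 overlapped its controls, and in EP400, ING3 and DMAP1, where PTTG1 did so too, it differed by -0.58 (adjusted p = 0.0923), -0.65 (adjusted p = 0.227) and -0.53 (adjusted p = 0.379). The remaining knockouts of the second section differed by -0.51 in GAS41, -0.37 in ACTL6A and -0.15 in MRGBP. MEAF6 and VPS72, with 1 library each, differed by -0.63 and -0.26. Every knockout mean of that section, TRRAP and TIP60 included, was thus below the shared sgNeg2 pair in WEE1. Whether that pair was itself high was not tested. WEE1 and ESPL1 were both called lower in BRD8, RUVBL1, RUVBL2, TRRAP and TIP60 and higher under p53. Of the transcription list, FOXM1, an activator of G2/M genes, was lower in BRD8 (-0.86, limma adjusted p = 0.000742), RUVBL1 (-0.66, adjusted p = 0.0108) and RUVBL2 (-1.002, adjusted p = 0.00119). FOXM1 was also lower under p53 (-0.45, limma adjusted p = 0.000759), where PTTG1 was higher, and in TRRAP it differed by -0.28 (adjusted p = 0.305). Under p53, 5 of 14 were higher, a share near the 37.6% of all genes, among them the MuvB subunits LIN37 (2.04, limma adjusted p = 6.66e-07) and LIN9 (1.31, adjusted p = 8.71e-06) and the pocket protein RBL2 (1.33, adjusted p = 2.7e-06), and 9 were lower (all genes 46.7%), among them TFDP1 (-0.83, adjusted p = 4.71e-06).

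CDKN1A and MDM2 were also followed in the knockouts with low PTTG1. In BRD8 both were higher, MDM2 by 0.77 (limma adjusted p = 7e-05) and CDKN1A by 0.38 (adjusted p = 0.00179). In RUVBL1 and RUVBL2 CDKN1A was higher by 1.20 (limma adjusted p = 0.0012) and 1.07 (adjusted p = 0.00108), and MDM2 by 0.90 (adjusted p = 0.000983) and 1.08 (adjusted p = 0.000215). In TRRAP they differed by 0.23 (limma adjusted p = 0.539) and 0.42 (adjusted p = 0.118). PTTG1 was thus low beside higher CDKN1A and MDM2 in 3 knockouts, and high beside them under p53. Higher means of both were not particular to low PTTG1. Where PTTG1 overlapped its controls, CDKN1A and MDM2 differed by 0.65 and 0.70 in GAS41 and 0.47 and 0.49 in ACTL6A. In ING3 they differed by 0.45 and 0.49, in EP400 by 0.14 and 0.51 and in H2AZ by 0.15 and 0.36. None of these reached a limma adjusted p under 0.05. In TIP60 and MRGBP the differences were -0.17 and -0.05 for CDKN1A and 0.40 and 0.28 for MDM2. MEAF6 (1 library) had 0.08 and -0.06.

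Likeness to PTTG1 was measured as Pearson's r over the 46 libraries, each centred on its section, for 8160 genes tested in all sections; libraries share controls and section scale, and r is given without a test. The highest were IDH2 (0.909), a mitochondrial isocitrate dehydrogenase, LIG1 (0.908), DNA ligase I, GLIPR2 (0.907), SYNE2 (0.903), CCNA1 (0.893), cyclin A1, RRM1 (0.892), a ribonucleotide reductase subunit, BCL2L11 (0.885), the death protein BIM, FAM83D (0.879), AAMDC (0.878) and ALDH7A1 (0.876). All 10 had positive differences under p53, from 1.37 in LIG1 to 6.16 in CCNA1, and negative ones in BRD8, RUVBL1, RUVBL2 and TRRAP. They were picked by r over these same libraries, so these signs largely follow from the choice and are no separate result. The lowest were LRPPRC (-0.903), PIP5K1A (-0.898), NOC3L (-0.893), ZFYVE9 (-0.89) and GTPBP4 (-0.88). CCNB2 had r = 0.347, CDC20 0.27 and CENPF 0.00176.

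Over the 42 guide libraries alone, chosen after the data were seen, the order was another. TACC3, a spindle protein, led with 0.958, then ZWINT (0.933), a kinetochore protein, UBE2C (0.932), CCNB2 (0.93), TROAP (0.919), STMN1 (0.918), APOBEC3B (0.918), BIRC5 (0.915), survivin, CENPW (0.911) and HMGB2 (0.91). CDC20 had 0.843 and CENPF 0.608. Of these 10 genes, TACC3 had a positive difference under p53 (0.571), and the other 9 had negative ones, from -1.21 in CCNB2 to -0.162 in APOBEC3B.

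Transcript length moved with PTTG1 in single libraries. PTTG1 is short, with a median annotated transcript of 824 bases, and each library's deviation from its section was fitted against log2 transcript length. In the sgNeg2 pair the slope was -0.0378 in the library with 248 FPKM of PTTG1 and 0.0445 in that with 155. It was -0.127 and 0.00283 in MRGBP, with 290 and 165 FPKM, and 0.0726 and -0.133 in MORF4L2, with 206 and 329 FPKM. Over the 20 libraries of the second section the slope and PTTG1 had r = -0.614, a description without a test. With the length trend removed, the PTTG1 difference was -1.36 in BRD8, -0.76 in RUVBL1, -1.15 in RUVBL2, -0.67 in TRRAP and 3.10 under p53, each in the direction given above.

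The depth behind PTTG1 was estimated from the most frequent low value of each library: 1 FPKM was worth about 6.46 to 21.4 fragments per kilobase. By this estimate PTTG1 had 400 to 3610 fragments per library, the fewest in BRD8 (400 to 644) and with vector (439 and 455). The estimate is rough, since the table holds no counts.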

How the data were processed

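The authors deposited 1 table of FPKM values for 48 libraries. Per the submitters' processing notes, which give no versions or roles, TopHat2, Cufflinks, Cuffdiff and hg19 were used. The table gives no coordinates, and 0 columns belonged to other samples. Column names gave the libraries, and the labels gave the groups.

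From the deposited FPKM, log2(FPKM + 1) was computed, which understates changes of weakly expressed genes. Genes reaching 1 FPKM in 2 or more libraries of a section were fitted with limma 3.58.1 in R 4.3.3 (1 level per target, intensity trend, two-sided, Benjamini-Hochberg adjustment over all tested genes, called under 0.05), and the code was tested on simulated data. The lone libraries of MEAF6 and VPS72 were assumed to vary like the other groups. PTTG1, the context genes and the pathway lists were chosen with earlier results of these data known. The rule for named genes took PTTG1, its copies, the context genes, ESPL1, CDKN1A, MDM2, 1 gene not reported here, the targeted gene of each knockout, up to 4 called members of each list by smallest adjusted p, and the 10 highest and 5 lowest in likeness. TRIP13, the neighbours, CCNB1 and PLK1 where they fall outside it, and the 10 likeness genes over the guide libraries were named after their values were seen. Transcript lengths (97.4% of genes matched by symbol) and the PTTG2 alignment used GENCODE v29 with Biopython 1.88, and promoters and gene order RefSeq on GRCh38.p14, a later build than the table's. Promoter windows end just before the most upstream RefSeq start of a gene. Alternatives were another pseudocount (0.1), a common median, no filter, fits on 2 groups, single guides, a replicate block, and leaving out each library. The removal of the length trend was added after seeing the data.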

Additional observations from a re-analysis of the deposited data

Results flagged for a closer look

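The column deposited as the second library of both MEAF6 and VPS72, which entered no comparison, had PTTG1 at 264.8 FPKM, above both sgNeg2 libraries (154.5 and 248.4 FPKM). Its slope on transcript length was -0.147, further from 0 than in any other library of its section, and whether this had a part in its PTTG1 level was not tested. In the BRD8 and H2AZ groups, the groups with 4 libraries, no library of PTTG1, CCNB2, CDC20 or CENPF stood apart from the other 3 by Dixon's criterion, and none of PTTG2 in H2AZ. PTTG2 was at 0 in all 4 BRD8 libraries and could not be assessed there.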

How the results depend on the processing

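The PTTG1 direction in BRD8, RUVBL1, RUVBL2, TRRAP, GAS41, H2AZ, VPS72 and p53 was kept under every alternative run. Under p53 the difference was 3.067 with a common median and 3.102 with the length trend removed. Leaving out 1 library moved the others from one side of 0 to the other: EP400 -0.6594 to 0.02178, TIP60 -0.2457 to 0.4355, ACTL6A -0.388 to 0.2932, MRGBP -0.2447 to 0.5632, ING3 -0.6425 to 0.03873, DMAP1 -0.3211 to 0.3601, MEAF6 -0.4556 to 0.2256, MORF4L1 -0.2026 to 0.1121 and MORF4L2 -0.2485 to 0.4209. It gave TRRAP -1.059 to -0.3707, GAS41 -0.732 to -0.0508, VPS72 0.03497 to 0.7162 and H2AZ -0.6166 to -0.1058. Pathway genes called, from 38 in BRD8, 21 in TIP60, 8 in TRRAP, 31 in RUVBL1 and 1 in H2AZ, ranged with 1 library left out over 25 to 38 in BRD8 (25 without the second sgNeg1 library), 9 to 19 in TIP60 (9 without the second sgNeg2), 0 to 20 in TRRAP (0 without its second library, 1 without the first sgNeg2, 20 without its first library), 12 to 27 in RUVBL1 (12 without its second library, 14 without either sgNeg3) and 0 to 3 in H2AZ (3 without the second sgNeg4, 0 without the first sgNeg4 or without 3 of its own libraries). With the 2 groups fitted alone they were 4 in EP400, 10 in TIP60, 48 in RUVBL1 and 52 in RUVBL2, where fewer libraries estimate the spread. With no filter they were 3 in TRRAP and 0 in H2AZ, and with the length trend removed 13 in TRRAP. The cause was not tested for the other changes. The shares of all genes called under the alternatives are not given, so these counts describe no trait of the pathway genes. With a replicate block the PTTG1 differences were -1.328 in BRD8, -0.3612 in H2AZ and 2.95 under p53, as without it, and 35, 1 and 63 pathway genes were called. In BRD8, H2AZ and p53, deviations of same-numbered libraries had r between -0.281 and 0.308. They showed no steady shared shift, but this cannot exclude that same-numbered libraries were handled together. Depth is known only as an estimate.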
